A study of Mus musculus with 2 samples.

Results

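Genes of the SOCS family, the cytokine-activated STAT factors and the kinase gene Jak3 were described in thymic T cells whose γδ receptor carries the Vγ6 chain, a subset that arises before and around birth. The members were chosen by name, 10 genes (Cish, Socs1, Socs2, Socs3, Socs5, Stat3, Stat5a, Stat5b, Stat6 and Jak3) of 30143 genes with a row on the array. Each had 1 row; 9 of these carried the gene's symbol alone, and the row for Jak3 also named Insl3, so its signal could not be assigned to Jak3 alone. Antibody-stained cells had been sorted from thymi of C57BL/6 newborns (0-day-old) of both groups, WT and MHC class II KO; the latter lack the proteins that show peptides to CD4 T cells. The disrupted class II gene, the number of animals behind each sample and their sex are not stated in the sources used here. Each genotype was measured on 1 array, so differences have no replicate check, no error and no test, and they describe these 2 arrays, called the WT array and the KO array from here on.

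Cytokines of the interleukin 2 family, interleukin 6 and its relatives, and interleukin 23 signal through receptors without kinase activity of their own. Janus kinases bound to these receptors phosphorylate them and then the STAT factors, which pair, enter the nucleus and switch on target genes. SOCS proteins are among those targets; they bind the receptors or kinases, attach ubiquitin ligases through their SOCS box and so damp the signal that induced them. In T cells that make interleukin 17, STAT3 acts downstream of interleukins 23, 6 and 21, while STAT5 acts downstream of interleukins 2, 7 and 15.

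Of the 10 genes, Cish alone differed by 1.5-fold or more between the arrays, and its signal was the lower one in the KO cells. Its log2 difference, MHC class II KO minus WT, was -0.87, a 1.83-fold lower signal. The other members above background lay between -0.22 (Stat3) and 0.23 (Stat6). Socs3 and Socs5 were not above background on either array. A gene was taken as above background when it exceeded, on at least 1 array, the 95th percentile of the olfactory receptor rows, a log2 signal of 5.94 for WT and of 5.86 for the KO. Members above background numbered 8, of which 1 passed 1.5-fold in the lower direction and 0 in the higher. Over all 14494 genes that passed the same filter, the shares were 3.17% lower and 4% higher. A count of 1 in 8 is too small to be read against that share, and the median of the 8 members was -0.03, beside 0.04 over all genes.

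**Figure D1:**
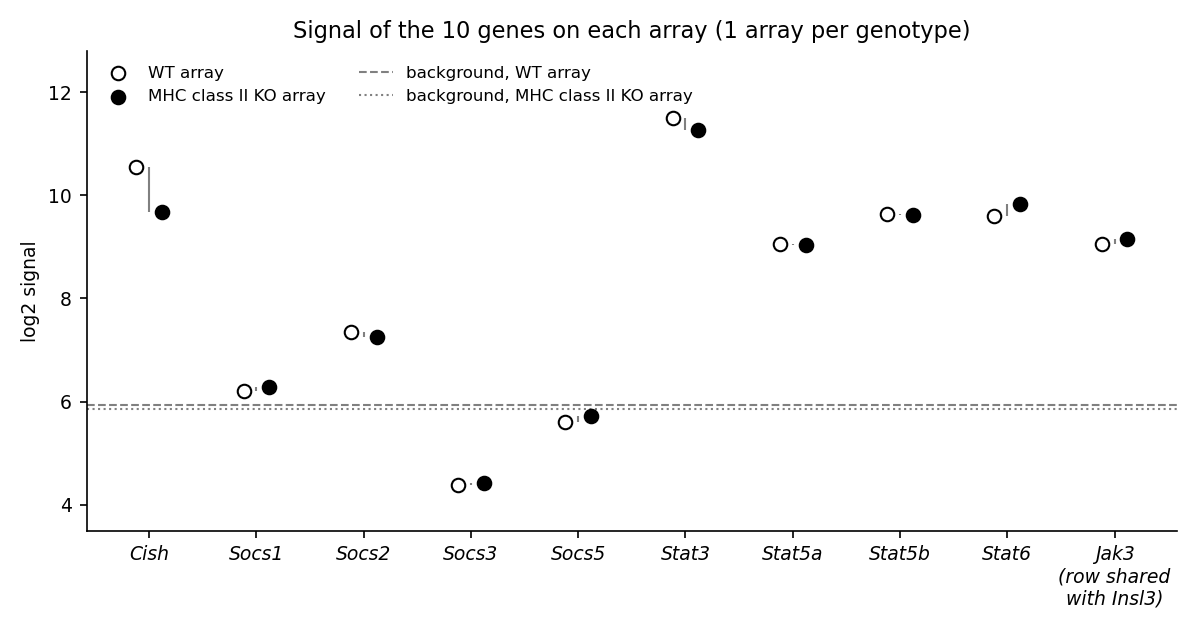
The log2 signal of each gene on the WT array (open circles) and the MHC class II KO array (filled circles), with the background of each array as a broken or dotted line. Cish has the widest gap, from 10.54 to 9.67, and Socs3 and Socs5 lie under both lines; heights of different genes are not comparable, because each row has its own probes.

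Cish encodes CIS, a SOCS protein that STAT5 induces and that acts on cytokine and T cell receptor signalling. Its signal was 1490 in the WT and 814 in the KO sample, which are log2 signals of 10.54 and 9.67. Both values were far over background, by 4.60 and 3.81 on the log2 scale, so the difference is a measured one and not a bound. Of the 14494 genes above background, 216 (1.49%) had a difference as low as that of Cish or lower. Of 9257 protein-coding genes above background, counted without predicted gene models, 60 (0.65%) were as low. In that set 1.61% passed 1.5-fold in the lower direction and 4.44% in the higher. Cish did not reach 2-fold, a size that 1.15% of all genes reached in the lower direction and 0.793% in the higher. At the small threshold of 1.2-fold, which 13.1% of all genes passed in the lower direction and 19.4% in the higher, Cish was still the 1 member counted.

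**Figure D2:**
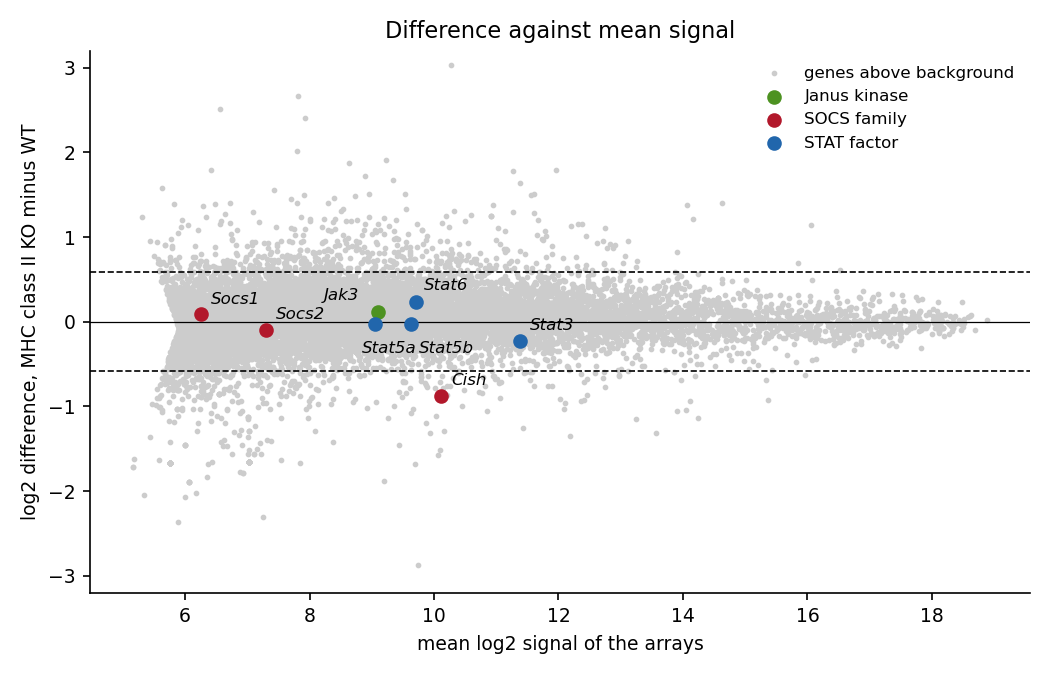
The log2 difference of each gene (MHC class II KO minus WT) against its mean log2 signal over both arrays, for genes above background in grey and for the 8 members above background in colour by family. Broken lines mark 1.5-fold; Cish lies below the lower line at -0.87, while the other 7 members lie between the lines, and 4 genes beyond 3.2 in either direction are outside the axes.

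Since STAT dimers bind the letters TTCNNNGAA, the start regions of the members were searched for them in the RefSeq promoter table of build GRCm38.p6. Its windows run from 250 bases before a transcript start to 50 after it. The motif reads the same on both strands, so 1 search covers both. Windows were found for 8 members (10 windows), and not for Socs2 and Socs5. The sequences of 3 SOCS genes are shown because they hold 2 copies, 1 copy and no copy of the motif, which is in capitals; each runs 5′ to 3′ from 250 bases before the start to 30 after it.
Cish, chr9:107296409-107296688, plus strand: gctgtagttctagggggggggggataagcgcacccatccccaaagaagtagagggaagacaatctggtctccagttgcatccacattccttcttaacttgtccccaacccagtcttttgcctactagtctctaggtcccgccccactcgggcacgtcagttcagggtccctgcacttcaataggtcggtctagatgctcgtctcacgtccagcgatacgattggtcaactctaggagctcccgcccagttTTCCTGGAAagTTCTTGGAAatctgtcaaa
Socs3, chr11:117969337-117969616, minus strand: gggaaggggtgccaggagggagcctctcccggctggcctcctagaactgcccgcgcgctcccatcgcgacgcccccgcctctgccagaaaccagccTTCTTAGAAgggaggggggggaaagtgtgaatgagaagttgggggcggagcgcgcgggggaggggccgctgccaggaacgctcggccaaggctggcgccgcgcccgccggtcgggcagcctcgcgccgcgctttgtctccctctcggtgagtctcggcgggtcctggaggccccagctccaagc
Socs1, chr16:10785507-10785786, minus strand: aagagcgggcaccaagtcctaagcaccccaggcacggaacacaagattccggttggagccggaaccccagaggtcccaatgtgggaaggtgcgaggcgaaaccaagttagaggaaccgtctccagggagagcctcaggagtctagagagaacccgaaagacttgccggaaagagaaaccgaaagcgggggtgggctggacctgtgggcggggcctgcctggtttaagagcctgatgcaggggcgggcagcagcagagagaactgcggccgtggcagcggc

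The Cish window holds TTCCTGGAA at bases 1 to 9 and TTCTTGGAA at bases 12 to 20, counted from 1 at the annotated start. The Socs3 window holds TTCTTAGAA at bases -154 to -146. No copy was found in the windows of Socs1, Stat3, Stat5a, Stat5b, Stat6 and Jak3, which says only that these letters are not in those stretches. At least 1 copy stood in 8.3% of the 32851 windows in the table, and at least 2 copies in 0.457%. The longer form TTCNNNNGAA, which STAT6 prefers, was in none of the members' windows and in 6.95% of all windows. A match is a description of the letters and no measure of binding.

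The other SOCS genes gave low or flat signals. Socs2, which restrains growth hormone and STAT5 signalling, had log2 signals of 7.35 (WT) and 7.25 (KO), a difference of -0.10. Socs1, an inhibitor of Janus kinases with a strong effect on interferon and interleukin 2 family signals, had 6.20 and 6.29. These values of Socs1 are only 0.27 and 0.43 over the background of their arrays, so its difference of 0.09 sits at the edge of what the arrays could measure. Socs1 was no longer above background when the limit was put at the 99th percentile of olfactory receptor rows.

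Socs3, which damps signals of the interleukin 6 receptor chain gp130 and of the interleukin 23 receptor, had log2 signals of 4.38 and 4.43. Relative to background these are -1.56 and -1.44. Socs5, which has been tied to interleukin 4 signalling, had 5.61 and 5.73, which are -0.32 and -0.14 relative to background. No fold is given for these 2 genes, and the values do not show that the transcripts were absent. The 3 further SOCS genes listed as pathway genes were above background on both arrays and within 1.5-fold. Socs4 differed by -0.00, Socs6 by -0.20 and Socs7 by 0.14. Thus of 8 SOCS family genes looked at, 6 were above background and Cish was the 1 at least 1.5-fold apart.

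All 4 STAT members were well above background, by 3.12 or more on the log2 scale on each array, and none was 1.5-fold apart. Stat3, the factor downstream of interleukin 23 and interleukin 6, had log2 signals of 11.49 (WT) and 11.27 (KO). Its difference was -0.22, the lowest of the 4, and 15.8% of all genes were as low or lower. Stat6, the factor of interleukin 4, went the other way, from 9.59 to 9.83, with a difference of 0.23. In 77.7% of all genes the difference was as low as that of Stat6 or lower. Stat3 and Stat6 are therefore both within the bulk of genes.

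Stat5a and Stat5b encode near-identical factors downstream of the interleukin 2 and interleukin 7 receptors, and the genes are neighbours of each other and of Stat3 on mouse chromosome 11. Stat5a had log2 signals of 9.06 and 9.03, and Stat5b had 9.64 and 9.62. Their differences, both -0.02 to -0.03, were the smallest among the members above background. Of all genes, 90.3% were at least as far from 0 as Stat5a and 92.0% as Stat5b. Because the 2 genes are so alike in sequence, probes of one could also take up transcripts of the other, and the probe sequences were not used here.

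Jak3 encodes the kinase that binds the common gamma chain shared by the receptors for interleukins 2, 4, 7, 9, 15 and 21. The row it shares with Insl3, a hormone gene of the gonads, had log2 signals of 9.05 and 9.16, a difference of 0.11. The remaining Janus kinase genes also had differences above 0. Jak1, the partner of Jak3 on these receptors, differed by 0.18, Jak2 by 0.08 and Tyk2, a kinase of the interleukin 12 and 23 receptors, by 0.34, all 3 within 1.5-fold. The differences of these 3 genes and of the Jak3 row were also above 0 after centring and after quantile or loess scaling. Before these scalings, 8173 of all 14494 genes above background had a difference above 0.

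Pathway genes around the members were taken from 12 lists, each read against the same shares of 4% higher and 3.17% lower at 1.5-fold. Of 15 cytokine genes, Il22 alone was above background, with log2 signals of 10.75 and 10.54. The genes for interleukins 2, 4, 6, 7, 9, 10, 15 and 21 were not above background on either array, so these ligand genes were not measurable in the sorted cells. Of 7 common gamma chain family receptors with a row, 6 were above background. Il2ra, the high-affinity interleukin 2 receptor chain and itself a STAT5 target, was the 1 past 1.5-fold, going from 9.91 to 11.10 (2.28-fold higher). Il7r, the interleukin 7 receptor chain, differed by 0.50, Il4ra by -0.48 and Il2rb by -0.14. The median was 0.02, and centring all differences on their median turned it below 0. Il2rg, the common gamma chain gene, was not analysed here.

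Of 14 other cytokine receptor genes, 11 were above background, and their median was 0.25. It was 0.20 when genes above background on 1 array are taken at their bound. Il10rb, a chain shared by the receptors for interleukins 10 and 22, was at the threshold with 0.59, and it was within 1.5-fold under each of the other scalings. Ifngr2, an interferon gamma receptor chain, differed by -0.50 and Il27ra by 0.47. Il12rb2 passed background in the KO cells alone, which bounds it at 1.27-fold higher or more. Among the further STAT genes Stat2, which carries type I interferon signals, differed by 0.61 and Stat4 by 0.02. Stat2 was within 1.5-fold under each of the other scalings.

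All 12 genes of other inhibitors of the pathway were above background. Ptpn6, which encodes the phosphatase SHP-1, went from 11.94 to 12.95 (2.01-fold higher) and was the 1 past 1.5-fold. Ptpn1, another phosphatase gene, differed by 0.55, Pias1 by 0.20 and the ubiquitin ligase gene Cblb by -0.19. The list's median was 0.10. Partners of the SOCS box were within 1.5-fold, with Rnf7 at -0.41, Elob at 0.23, Eloc at 0.17 and Cul5 at -0.10. Cish thus was lower on an array where the SHP-1 gene was higher, and no list of inhibitors had more than 1 gene past the threshold.

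**Figure D3:**
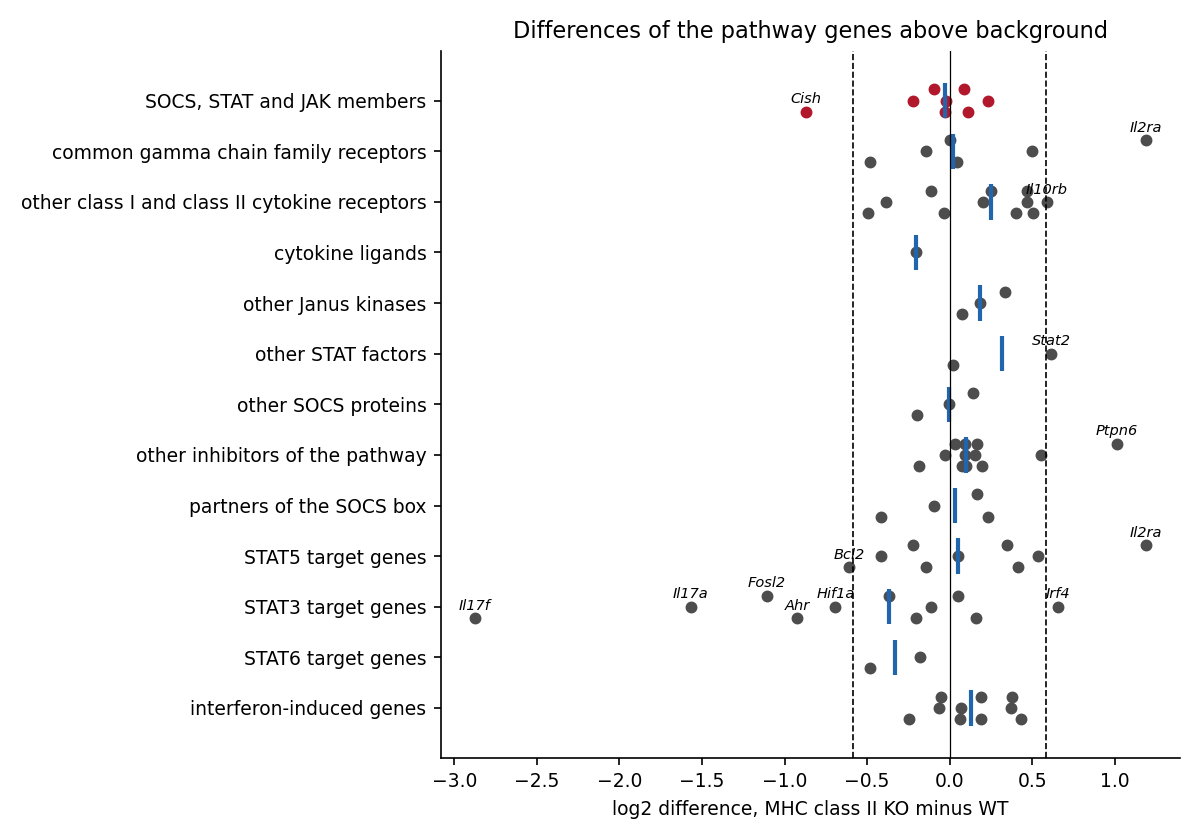
The log2 difference (MHC class II KO minus WT) of each gene above background in the 10-gene set (red) and in the 12 pathway lists (grey), with the median of each as a blue bar and 1.5-fold as broken lines; vertical scatter within a list carries no value. Genes past 1.5-fold are named, and the STAT3 target list has 5 of its 11 genes past the lower line.

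Target genes of the STAT members did not move as 1 group. The target lists left out the members themselves, so Cish is not in the STAT5 counts and median given here. Of 9 STAT5 targets above background, Il2ra was at least 1.5-fold higher and Bcl2, which protects cells from death, at least 1.5-fold lower, going from 11.53 to 10.92 (-0.61). Pim2, a survival kinase gene, differed by -0.42 and the cyclin gene Ccnd3 by 0.54. The median was 0.05, and it was -0.00 after quantile normalization. Cish and Il2ra, both known STAT5 targets, thus differed in opposite directions between the same 2 arrays, by -0.87 and 1.19.

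Among 11 STAT3 targets above background, 5 passed 1.5-fold in the lower direction and 1 in the higher, and the median was -0.37. The lower genes were led by the cytokine genes Il17f (-2.88) and Il17a (-1.57), the AP-1 gene Fosl2 (-1.11) and Ahr (-0.92), a ligand-activated transcription factor gene. Hif1a (-0.69) on the lower side and Irf4 (0.66) on the higher side are named after their values were seen. These counts were the same under each of the 3 other scalings. Several of these genes were known to be low on this array when the list was drawn up, so the list is no independent evidence of its direction. The Stat3 signal itself differed by -0.22 and that of Socs3 was below background.

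Of 4 STAT6 targets with a row of their own, 2 were above background, Il4ra (-0.48) and Nfil3 (-0.18), both within 1.5-fold. Of 10 interferon-induced genes above background, 0 were past 1.5-fold in either direction. Ifit1 differed by 0.43, Gbp2 by 0.37, Usp18 by 0.37 and Bst2 by -0.25, and the median was 0.13. Socs1, which restrains the response to interferons, was near background.

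The labelled cell type was checked against its markers. All 10 Vγ6 cell markers with a row of their own were above background on both arrays, among them Tcrg-V6, Cd3e, Maf and Sox13. Tcrg-V6, the gene of the chain used in the sort, had log2 signals of 12.64 and 12.33. Il17a was the 1 marker past 1.5-fold, and Zbtb16 and Blk each differed by 0.47. The class II chain genes were lower in the KO cells, H2-Ab1 from 7.68 to 6.67, H2-Eb1 from 6.95 to 5.98 and H2-Aa from 6.09 to 5.08. H2-Ab1 and H2-Eb1 were still above the KO background of 5.86. Where their probes lie relative to the disruption is not known, so this checks the labels only in part.

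Markers of double positive and αβ thymocytes also differed between the WT array and the KO array. Of 13 with a row of their own, 12 were above background. When genes above background on 1 array are taken at their bound, 8 were at least 1.5-fold higher and 1 lower. Without bounds the count higher was 9, and 7 after centring. Over all genes above background the shares were 4% higher and 3.17% lower. Summed signals in this paragraph are over all markers with a row of their own, those below background included. For the 13 the sum went from 18357 to 38900, most of the rise from Cd8b1, which went from 13.38 to 14.75 (1.38). Dntt was at least 3.68-fold higher, and Ccr9 was lower at -1.29. For B cells the summed signal went from 16753 to 42499, nearly all of it from the row that names Ighm alone (1.41). Rows above background that name Ighm with other genes were not higher, going from 7.24 to 7.12 and from 6.41 to 6.36. Cd79b was above background on both arrays, at 10.08 and 10.19, while Ms4a1, Cd79a, Pax5 and Ebf1 were below it. For NK and innate lymphoid cells it went from 5786 to 3632 through Nkg7 alone (-1.25); the other markers above background, Gzma (0.31) and Klrb1c (0.16), were not lower, and Ncr1 and Eomes were below background. For dendritic cells and macrophages it went from 659 to 901, mostly through Cd68, with 8 of 11 markers, Itgax and Csf1r among them, below background. The 3 above it were Cd68 (0.91), Siglech (0.03) and Lyz2, which passed in the KO cells alone and is bounded at 1.23-fold higher or more. The part of such cells in the values of Cish, Il2ra and Ptpn6 was not tested. In sorted bulk samples fewer cells with a transcript and less transcript per cell cannot be told apart.

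Thymic epithelial cells had 3 of 9 markers above background. Ccl25 differed by -0.10, and Krt8 and Epcam passed it in the WT sample alone, so their lower signal is bounded at 1.18-fold and 1.17-fold or more. Of regulatory and CD4 T cell markers 2 were above background, Ikzf2 (0.28) and Zbtb7b (0.19). Mesenchymal and endothelial cells also had 2, Pdgfrb (0.05) and Pecam1 (0.11), both within 1.5-fold. Of red blood cell markers with a row of their own Hbb-y was above background, by a small margin on the KO array, and differed by -0.22. The adult globin genes have rows shared among near-identical copies, and these were higher in the KO cells. The pair of rows that name Hbb-bs went from 7.08 to 8.16 and from 6.38 to 6.90. A row that names Hba-a1 went from 6.00 to 6.32, its WT value close to the WT background of 5.94. Another went from 5.47, below that background, to 6.29, so its difference is not a measured one. The part of red blood cell RNA in the members' values was not tested.

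**Figure D4:**
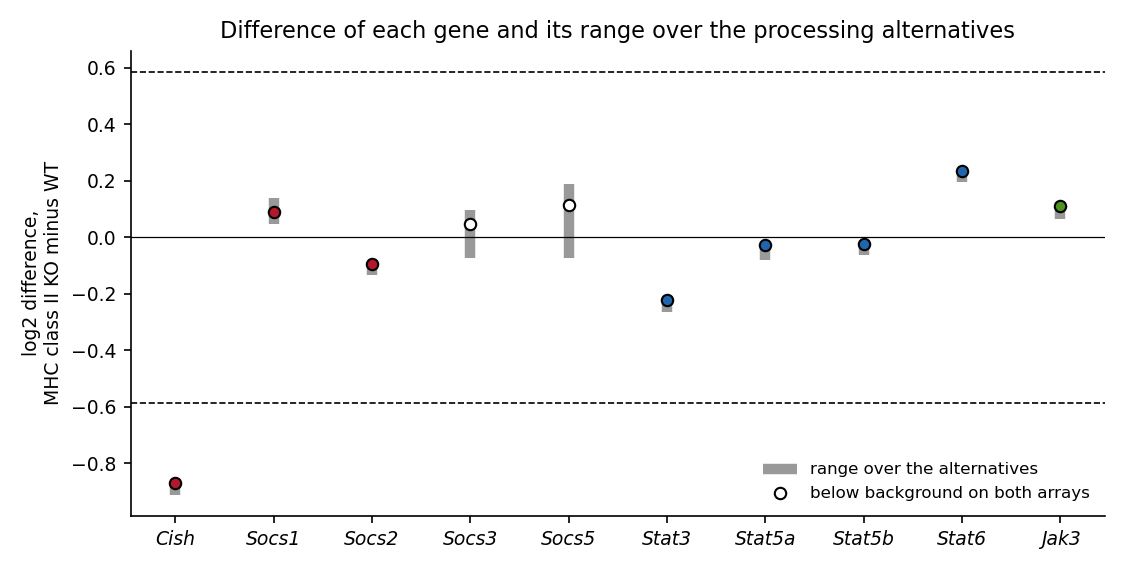
The log2 difference (MHC class II KO minus WT) of each of the 10 genes as a point, coloured by family or open where the gene was below background on both arrays, and the range of that difference over the processing alternatives as a grey bar. Cish ranges from -0.91 to -0.87 and stays below the lower 1.5-fold line, while the ranges of the other genes lie between the lines and those of Socs3 and Socs5 cross 0.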

How the data were processed

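Total RNA of sorted cells was labelled with biotin and hybridised to whole-transcript GeneChip arrays, per the labels' protocols. Each of the 65956 rows (transcript clusters) has a deposited intensity per array, not log-transformed, made with RMA and Affymetrix Expression Console 1.4.1, per the submitters' processing notes; its settings and the genome build are not in these notes. They run to 480711 on the WT array, past the 65535 of a 16-bit scanner, so a step not described could have widened or narrowed every fold. The number of arrays limits the precision.

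Their log2 was taken and the difference was MHC class II KO minus WT. Rows got symbols from the platform annotation, which can be old, updated by gene ID through the RefSeq table of GRCm38.p6 (22818 rows matched). Of 65956 rows, 30604 had 1 symbol, 2146 several and 33206 none. The brightest single-symbol row stood for a gene; Jak3 used its shared row and enters only the members' counts. Background was set per array from 1228 olfactory receptor rows (95th percentile). With 1 array per group no test was run; genes were counted at 1.5-fold. Named were the members, the 4 genes of each pathway list and the 3 of each marker list with the largest absolute difference among those above background, and genes said to be chosen later; markers given for a label or defining check are listed without that rule. The members and lists were chosen with earlier results of these data known. Some genes of these lists are not reported here. Alternatives covered scaling, background, choice of rows and threshold. Only the counting and scaling steps were tested on simulated data, with planted changes larger than the difference of Cish. Python 3.11.15, numpy 2.4.6, pandas 2.3.3 and statsmodels 0.14.6 were used.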

Additional observations from a re-analysis of the deposited data

How the results depend on the processing

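The difference of Cish was -0.91 after centring, -0.87 after quantile normalization and -0.90 after loess correction; the choices of background and rows could not move it, since it has 1 row far over background. The count of members at least 1.5-fold lower was 1 under all of these and at a 1.2-fold threshold, and 0 at a 2-fold threshold. The count of members at least 1.5-fold higher was 0 under every alternative run, the 1.2-fold threshold included. The median of the members above background lay between -0.07 and -0.02 under the other alternatives, but was 0.01 with no background filter, which adds Socs3 and Socs5. Leaving out the row shared with Insl3 or leaving out Cish, both chosen after seeing the data, gave medians of -0.03 and -0.02. The signs of Socs3 and Socs5 turned when values below background were raised to it, as that setting by construction puts the difference of the 2 backgrounds in place of theirs. A move was called small when under 0.28, the SD of the gap between 2 rows of a gene over 170 genes. No paired analysis was possible because each genotype has 1 array and the labels carry no replicate numbers. No replicate could be left out for the same reason. Signal over background limits Socs1, Socs3 and Socs5.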

Other observations

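The pair of TTCNNNGAA copies at the Cish start was set against the other genes with such a window, a description chosen after seeing the data. Of 8397 genes above background that have a window in the RefSeq table, 38 had at least 2 copies in 1 window. Cish was the 1 of these at least 1.5-fold lower in the KO cells. Genes with at least 2 copies that were at least 1.5-fold higher numbered 3, namely Ccr6 (1.46), a chemokine receptor gene of interleukin 17-producing cells, Irf8 (1.11), an interferon-regulated transcription factor gene, and Gbp7 (0.74), an interferon-induced GTPase gene. The median of the 38 was 0.05, beside 0.07 for the 7685 genes with no copy. Of 712 genes with at least 1 copy, 2.95% were higher and 2.81% lower, and of those with no copy 4.18% and 1.86%. These shares were not tested.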
